A study of Mus musculus with 8 samples.

Results

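The cytosolic ribosomal protein genes encode the proteins that, with the ribosomal RNAs, build the ribosomes of the cytoplasm. They were taken by symbol: Rpl or Rps followed by a number (with an optional a, x, y, l or k), Rplp0, Rplp1, Rplp2 and Rpsa, without -ps pseudogenes and without the Rps6k kinases. The rule found 90 genes, 54 with large subunit names and 36 with small subunit names, and 82 of them were among the 17710 genes matched between the mutant and the control tables. Of the 90, 81 were tested, 48 of the large and 33 of the small subunit, out of 12977 genes tested in all. Rpl3l lay under the minimum level of 1 FPKM, Rpl13 was listed only in the mutant tables, and Rpl10l, Rpl39l, Rpl32l, Rpl6l, Rps3a2, Rps3a3 and Rps12l1 were listed only in the control tables.

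Hippocampal total RNA of C57BL/6 mice had been sequenced in 8 libraries, 2 per group: mice with a CRISPR knockout of Pyk2 (KO), mice with a CRISPR Y402F mutation of Pyk2 (Y402F), wild-type controls of the knockout (KO control) and wild-type controls of the Y402F mutant (Y402F control). Pyk2, the product of Ptk2b, is a calcium-responsive tyrosine kinase, and Y402F puts phenylalanine in place of the tyrosine that it phosphorylates on itself. Strain and tissue are common to the 4 groups, while age, animals per library and founder lines were not stated in the labels. Because nothing marks the libraries of a group as separate animals, the p-values below reflect variation among these libraries, part or all of which may be technical.

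A ribosome has a small subunit, which reads the mRNA, and a large subunit, which joins amino acids. Most of its proteins are made from short, abundant mRNAs with a pyrimidine run at their start (a 5′ TOP), through which the kinase mTORC1 and the RNA-binding protein LARP1 adjust their translation. In neurons, translation of such mRNAs has been linked to growth and to lasting synaptic change, and messages for ribosomal proteins are also found in neurites. Each gene has many processed pseudogenes in mammalian genomes, copies so alike that short reads cannot always be assigned to the parent gene.

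RefSeq promoters (GRCm38.p6) were found for 60 of the 81 tested genes. The 60 bases around the annotated start, 40 before it and 20 from it on, are shown for 8 of them on the strand of the gene, with the longest unbroken run of C and T in capitals. Rpl38 (chr11:114668540-114668599, plus strand), Rpl34 (chr3:130730318-130730377, minus strand) and Rps15a (chr7:118116128-118116187, minus strand) were the genes whose difference between the wild-type groups was called whichever library was left out. Rpl13a (chr7:45128726-45128785, minus strand) had the largest such difference. Rps27 (chr3:90213629-90213688, minus strand) and Rps27l (chr9:66946046-66946105, plus strand) are paralogs far apart in level, and Rpl22l1 (chr3:28805468-28805527, plus strand) and Rpl7l1 (chr17:46782637-46782696, minus strand) are 2 further paralogs of low level.
Rpl38: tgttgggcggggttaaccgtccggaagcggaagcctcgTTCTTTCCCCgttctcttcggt
Rpl34: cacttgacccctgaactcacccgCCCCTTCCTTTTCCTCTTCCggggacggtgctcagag
Rps15a: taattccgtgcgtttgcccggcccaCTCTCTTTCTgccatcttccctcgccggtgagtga
Rpl13a: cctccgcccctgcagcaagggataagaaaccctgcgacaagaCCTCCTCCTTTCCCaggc
Rps27: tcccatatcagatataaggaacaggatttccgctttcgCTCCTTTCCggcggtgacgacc
Rps27l: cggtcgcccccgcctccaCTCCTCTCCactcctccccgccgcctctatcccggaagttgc
Rpl22l1: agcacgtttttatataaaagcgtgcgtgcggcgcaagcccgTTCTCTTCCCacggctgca
Rpl7l1: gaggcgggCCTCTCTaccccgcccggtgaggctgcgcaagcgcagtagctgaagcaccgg

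In these windows the run spanned 20 bases in Rpl34, 14 in Rpl13a and 10 in Rpl38, Rps15a and Rpl22l1, against 7 in Rpl7l1. A run of 8 or more pyrimidines lay within the window in 56.7% of the 60 tested genes with a promoter, against 27.1% of the other 26965 genes of the RefSeq table; where a gene had more than 1 start, the window with the longest run counted. In the whole promoter of 300 bases, on either strand, CCGGAAG, a core of the sites bound by ETS factors, was present in 41.7% against 9.86%. The letters CTCTTTC were present in 28.3% against 9.24%, CTTTTC in 28.3% against 24.3%, and the TATA box letters TATAAA in 11.7% against 15.7%. The pyrimidine letters can lie within the runs, and a match is a description of the sequence only.

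Ptk2b was at 56.1 and 68.7 scaled FPKM (FPKM divided by a factor that aligns the libraries) in KO, 353 and 396 in Y402F, 309 and 308 in KO control, and 324 and 317 in Y402F control. In the mutants, expected counts added up to 5756180 to 6017219 per library; the control tables hold no read numbers. The granule cell markers Prox1, C1ql2 and Dsp of the hippocampus were above 0 in all 8 libraries. Between the wild-type groups they differed. Prox1 was at 8.67 and 9.31 in KO control, against 17.8 and 15.5 in Y402F control. In the same order C1ql2 was at 36.6 and 39.1, against 45.0 and 43.6, and Dsp at 2.60 and 2.57, against 5.51 and 8.93. Ttr, a gene of the choroid plexus, reached 656 in Y402F replicate 2 and 1015 and 1032 in Y402F control, against 1.19 to 10.2 in the 5 remaining libraries. Xist was at 25.5 in KO replicate 1 and 40.1 in Y402F replicate 1, and the Y-linked Ddx3y at 5.07 and 4.74 in their replicates 2, so each mutant group paired a library of female pattern with a library of male pattern. Both KO controls had the female pattern (Xist 3.95 and 3.24) and both Y402F controls the male pattern (Ddx3y 5.77 and 4.78); the labels give no sex.

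The mutant and the control tables differ in kind: the mutant tables hold expected counts and FPKM per Entrez gene, the control tables FPKM per Ensembl gene without counts. Mutation and kind of table therefore cannot be told apart in KO against KO control or in Y402F against Y402F control. The sex pattern differs there too, with both patterns in each mutant group and a single pattern in each control group. KO against Y402F and KO control against Y402F control stay within a kind of table and are given before the others.

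The ribosomal protein genes were short and highly expressed. Their transcript length had a median of 703 bases (328 to 5158), against 2837 over all tested genes, and 62 of 81 were under 1000 bases. Per length, their mean over the 8 libraries had a median of 209 scaled FPKM, against 10.8 over all tested genes, and 68 of them exceeded 100. Rpl41, the smallest ribosomal protein, averaged 1038 scaled FPKM, the small subunit gene Rps15 averaged 1035, the stalk protein gene Rplp1 991, Rpl13a 690 and the small subunit gene Rps14 556. At the lower end stood Rps27l at 8.72, Rpl7l1 at 18.1, Rps4l at 24.6, Rpl22l1 at 27.3 and Rpl22 at 55.9 scaled FPKM, of which Rpl22 is the parent of the paralog Rpl22l1 and the rest are paralogs themselves, Rps4l being classed by RefSeq as a transcribed pseudogene. Expected counts of a gene in a mutant library had a median of 921 (16 to 3503), and in the control tables the upper confidence bound of Cufflinks lay a median of 11.8% above the value. These ranks were set on a mean over both kinds of table, although some members differed several-fold between them.

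**Figure D1:**
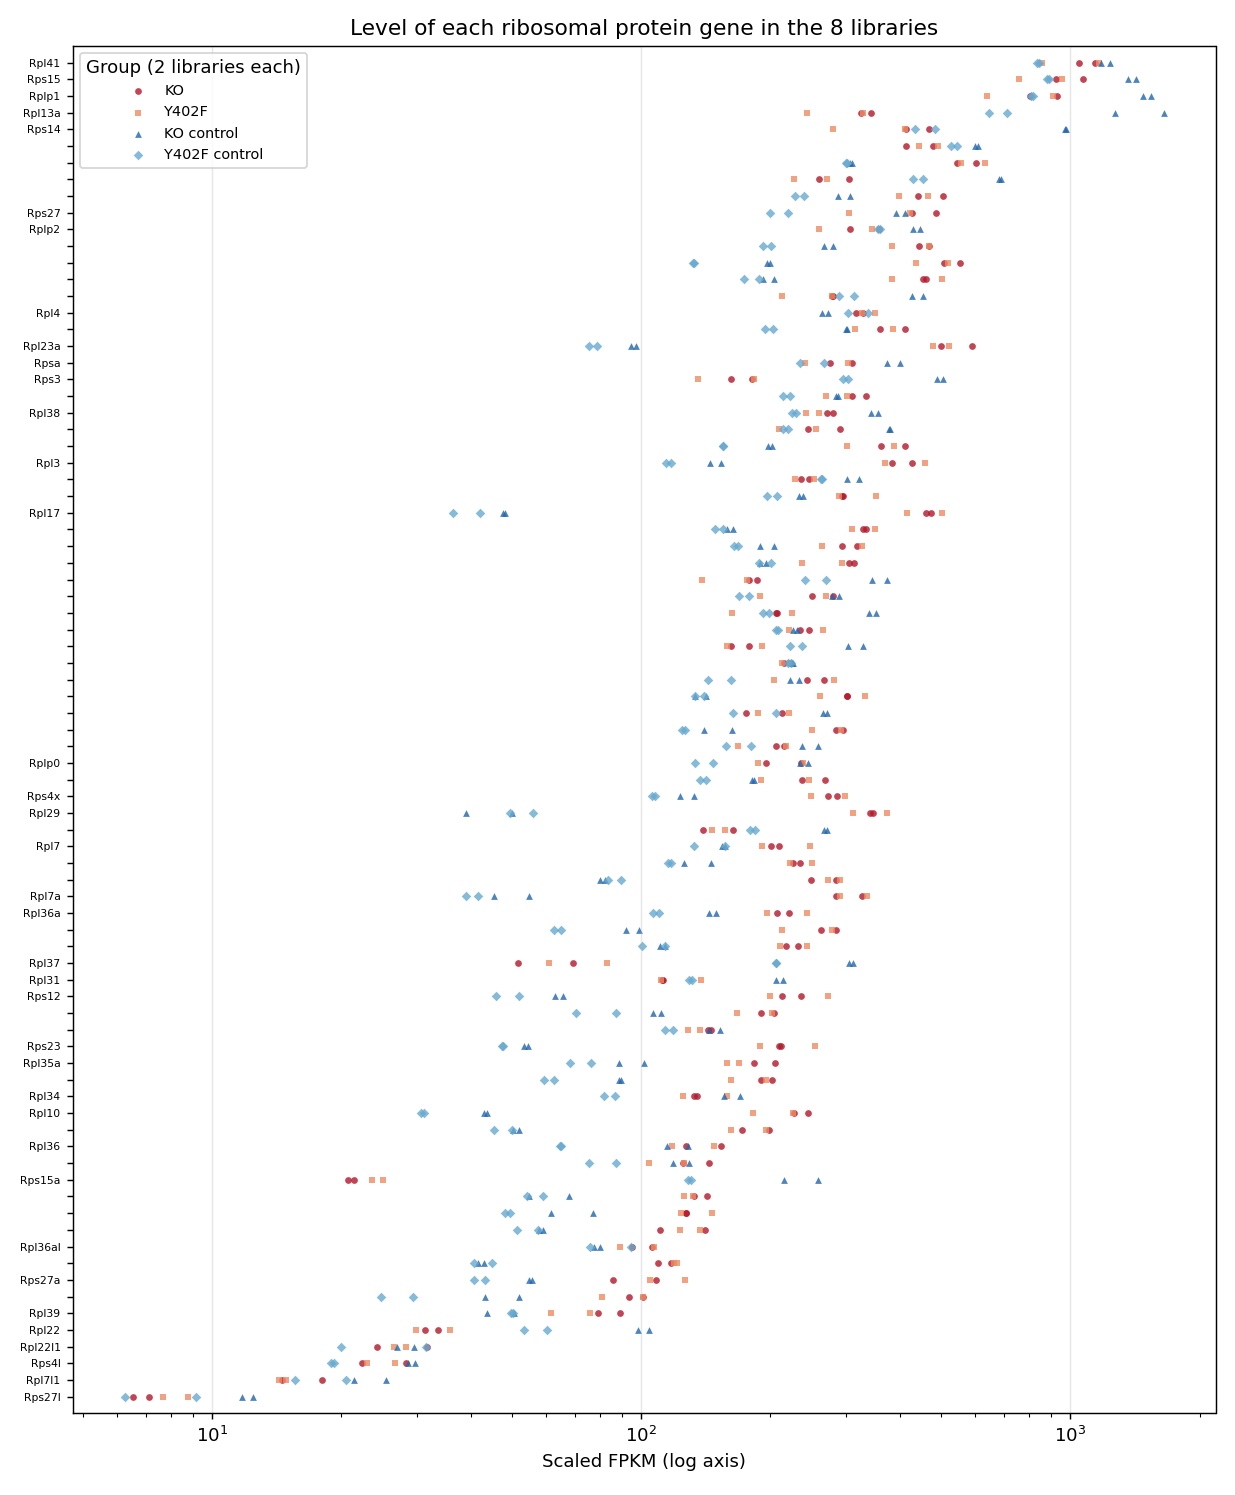
Level of the 81 tested ribosomal protein genes, 1 row per gene ordered by the mean over 8 libraries, in scaled FPKM on a log axis; each point is a library, the 4 markers are the groups, and the rows of genes named in the text are labelled. Rpl41 averages 1038, Rps15 1035 and Rps27l 8.72, and for genes such as Rpl17 and Rps15a the mutant and the control libraries lie in separate clusters.

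No ribosomal protein gene passed the test between KO and Y402F. None was called in either direction by the quasi-likelihood test of edgeR on expected counts (0 of 81, with 0 at an unadjusted p under 0.05; of all genes tested, 0.00771% were called and 1.92% had an unadjusted p under 0.05). DESeq2 and limma also called 0, with 0 and 4 members at an unadjusted p under 0.05. The log2 differences of KO over Y402F ran from -0.27 to 0.35 with a median of 0.05 and a median SE of 0.15, and 53 of 81 were positive. The large subunit had a median of 0.05 and the small subunit of 0.07, against -0.01 over all genes. Other tested genes under 1000 bases had a median of 0.06, with 622 of 1012 positive. Libraries of the groups did not overlap at 12 members that were higher in KO and 3 that were lower, where 12.8% of all genes were higher and 12.8% lower in this sense. Summed over the 81 genes, the level was 21580 and 22470 scaled FPKM in KO, against 18700 and 22920 in Y402F, so the Y402F libraries lay on both sides of KO. The members took 1.48 and 1.53% of expected counts in KO, against 1.29 and 1.57% in Y402F.

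The 4 members of smallest p were 3 small subunit genes and Rpl35a of the large subunit. Rps14 was at 415 and 470 scaled FPKM in KO, against 280 and 411 in Y402F (log2 difference 0.35, SE 0.17, edgeR adjusted p = 0.9998). The gap between the Y402F libraries was wider than that from the upper Y402F library to the lower KO library. Rps27 was at 428 and 485 in KO, against 305 and 424 in Y402F (0.32, SE 0.16). Rpl35a was at 205 and 184 in KO, against 158 and 169 in Y402F (0.24, SE 0.15). Rps27a, which is translated as a fusion with ubiquitin, was at 108 and 86.1 in KO, against 105 and 127 in Y402F (-0.25, SE 0.16), and here the groups overlapped. The adjusted p was 0.9998 for each of these.

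Among the mutants, Y402F replicate 1 stood apart from the other 3 libraries at these genes. It was the lowest of the 4 mutant libraries for 64 of 81 members, against 27.9% of all genes, and it lay below Y402F replicate 2 for 76 of 81, by a median log2 difference of -0.27 (0.829-fold). The medians relative to the mean of the 4 libraries were 0.02 and 0.07 in KO replicates 1 and 2, and -0.16 and 0.11 in Y402F replicates 1 and 2, where the medians over all genes lay between -0.0019 and 0.0026. Without Y402F replicate 1 the median difference of KO from Y402F turned to -0.07, with 26 of 81 positive; without Y402F replicate 2 it was 0.20, with 71 of 81 positive. In both cases edgeR called 0 members. Marker sums of microglia were 361 and 371 scaled FPKM in KO, against 295 and 361 in Y402F replicates 1 and 2. Blood markers summed to 361 and 498 in KO, against 281 and 409 in Y402F, and oligodendrocyte markers to 2958 and 3534 in KO, against 2683 and 3007 in Y402F. Y402F replicate 1 was the lowest library in all 3. It was also the lowest mutant library for astrocyte and endothelial markers. Choroid plexus markers summed to 40.2 and 54.3 in KO, against 39.7 and 755 in Y402F. Neuronal markers did not follow this order, with 2938 and 2711 in KO, against 2937 and 2651 in Y402F. The part of these markers in the result was not tested. In bulk tissue fewer cells of a type and less RNA per cell cannot be told apart.

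**Figure D2:**
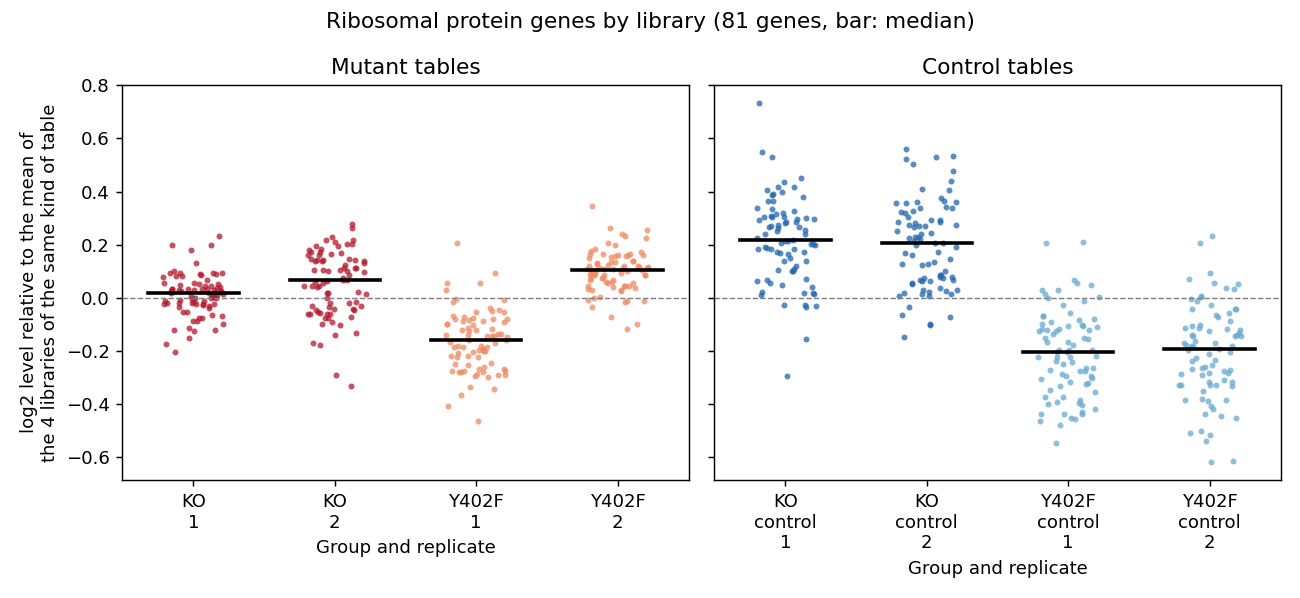
log2 level of each of the 81 genes relative to its mean over the 4 libraries of the same kind of table, for the mutant tables (left) and the control tables (right); each point is a gene and the bar is the median of the library. The medians are 0.02, 0.07, -0.16 and 0.11 in the mutant libraries, and 0.22, 0.21, -0.20 and -0.19 in the control libraries.

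Between the wild-type groups many ribosomal protein genes differed. The 81 genes summed to 21490 and 21200 scaled FPKM in KO control, against 14850 and 14630 in Y402F control, a ratio of 1.45 (1.46 for the large and 1.43 for the small subunit). Both subunits thus stood higher in KO control by nearly the same factor in scaled FPKM. As a share of the FPKM of all matched genes, the members went the other way. They held 1.43 and 1.44% in KO control, against 1.56 and 1.5% in Y402F control. The FPKM of all matched genes includes a gene that averaged 387200 scaled FPKM over the 8 libraries. Its part in this share was not tested. By limma, 37 of 81 members (45.7%) were called higher in KO control and 0 lower, where 4.87% of all genes were called higher and 3.19% lower (8.06% in all). At an unadjusted p under 0.05, 55 were higher and 1, Rpl4, was lower, where 14.1% of all genes were higher and 13.0% lower. The median log2 difference was 0.39 (1.31-fold), against -0.02 over all genes, and 74 of 81 were positive. Libraries did not overlap at 69 higher and 2 lower members, where 28.1% and 30.9% of all genes did not.

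Of the 3 stalk proteins, Rplp0 and Rplp1 were called with all libraries, as was Rpsa, but none of these calls held when any of the 4 control libraries was left out (limma adjusted p = 0.054 to 0.105). Rplp1, an acidic protein of the large subunit stalk, which recruits translation factors, was at 1477 and 1541 scaled FPKM in KO control, against 817 and 808 in Y402F control (log2 difference 0.89, SE 0.15, limma adjusted p = 0.017). The stalk base Rplp0 was at 245 and 235 in KO control, against 133 and 147 in Y402F control (0.77, SE 0.13, limma adjusted p = 0.019). Neither gene had an overlap between the groups. The remaining stalk protein Rplp2 was at 430 and 445 in KO control, against 356 and 359 in Y402F control, and was not called (0.29, SE 0.13, limma adjusted p = 0.20). Rpsa, a small subunit protein also known as a laminin receptor, was at 374 and 401 in KO control, against 266 and 234 in Y402F control (0.63, SE 0.12, limma adjusted p = 0.024).

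Further large subunit genes were called, and Rpl13a had the largest difference of the 81. Rpl13a, whose protein is also known to repress translation of inflammatory mRNAs once released from the ribosome, was at 1649 and 1272 scaled FPKM in KO control, against 712 and 647 in Y402F control (log2 difference 1.09, SE 0.16, limma adjusted p = 0.013). Rpl34 was at 170 and 156 in KO control, against 86.8 and 82.1 in Y402F control (0.94, SE 0.12, limma adjusted p = 0.011). Rpl36 was at 115 and 129 in KO control, against 64.6 and 64.9 in Y402F control (0.90, SE 0.13). At all 3 the groups were apart by more than the spread within either group. Rpl38, required in mouse embryos for translation of Hox mRNAs, was at 343 and 356 in KO control, against 230 and 224 in Y402F control (0.62, SE 0.07, limma adjusted p = 0.011). Rpl38 had the narrowest error of these.

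Of the small subunit, Rps14, known from a human deletion syndrome with anaemia, was at 979 and 970 in KO control, against 485 and 436 in Y402F control (log2 difference 1.08, SE 0.16, limma adjusted p = 0.013). Rps27 was at 393 and 412 in KO control, against 220 and 199 in Y402F control (0.94, SE 0.14). Rps15a was at 215 and 258 in KO control, against 130 and 129 in Y402F control (0.86, SE 0.11, limma adjusted p = 0.011). All 3 were about as far apart as the large subunit genes above. Rps15a and Rpl38 are named because they stayed called whichever of the 4 control libraries was left out. The opposite sign was seen at 7 members, none of them called, and 2 of these are given here, chosen after their values were seen. Rpl4 was at 263 and 273 in KO control, against 338 and 304 in Y402F control (-0.26, SE 0.08, limma adjusted p = 0.087). Rpl29 was at 39.1 and 50.1 in KO control, against 55.9 and 49.3 in Y402F control (-0.24, SE 0.14), and these overlap.

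**Figure D3:**
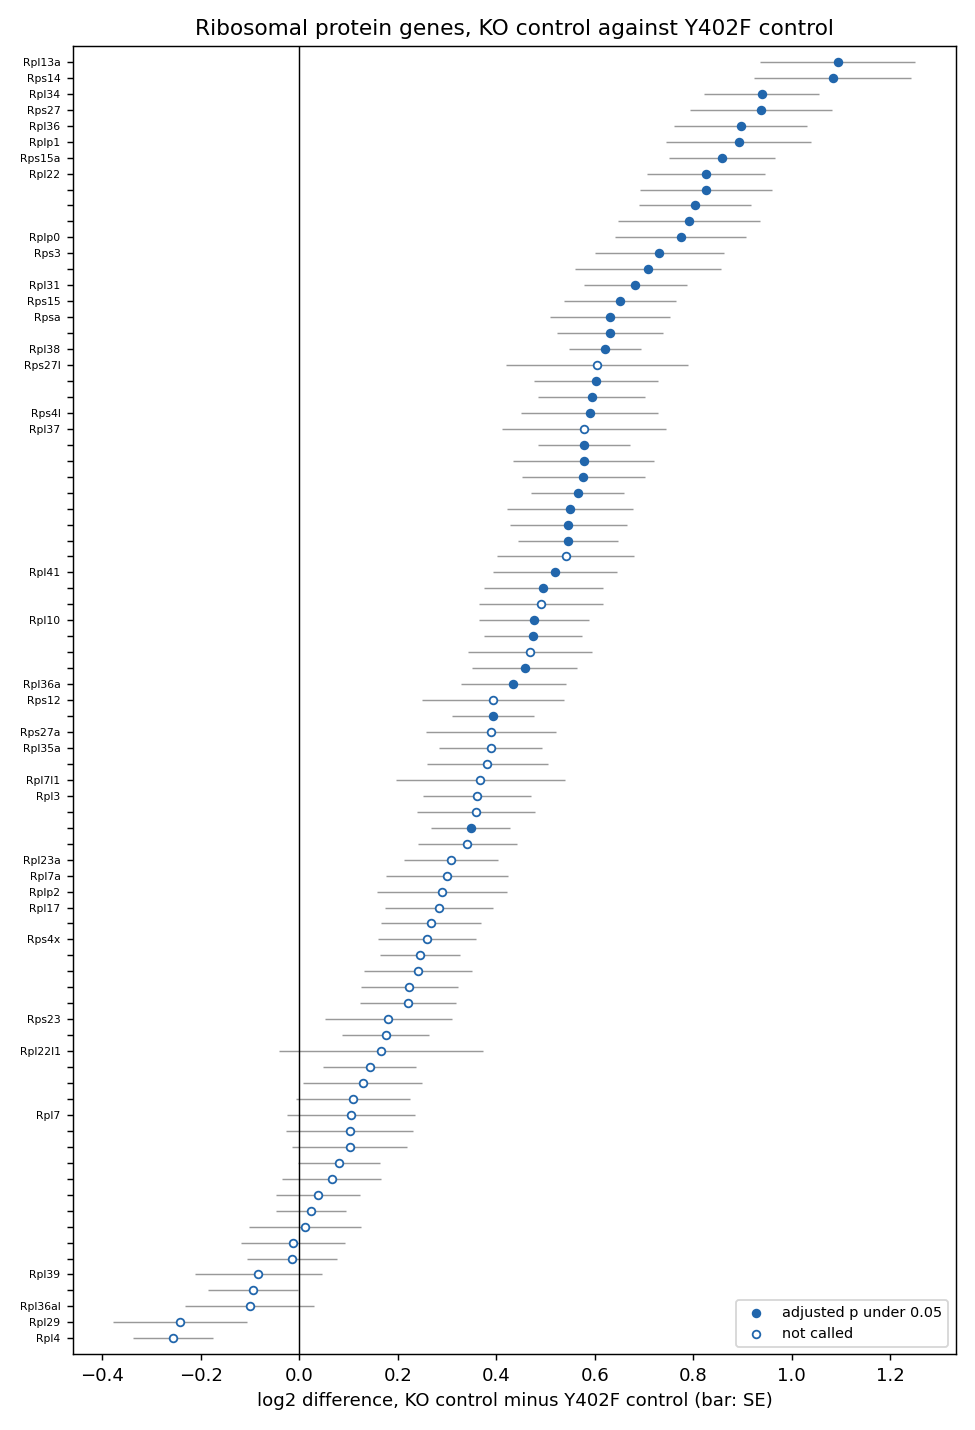
log2 difference of KO control over Y402F control for each of the 81 genes on the log2(scaled FPKM + 1) scale, sorted, with bars of 1 SE; filled points are genes with a limma adjusted p under 0.05, and genes named in the text are labelled. Of the 81 points, 74 lie right of 0 and 37 are filled, none of them left of 0.

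The number of calls rested on having both libraries of each wild-type group, while the direction did not. Calls over all genes fell in number too when a library was left out. In the 4 fits that each left out a control library fewer members were called, and the median log2 difference was 0.40 to 0.43. Rpl34, Rpl38 and Rps15a were called in all 4. Some others were called in fewer, such as Rpl13a and Rps14 in 3 and Rpl36, Rps27 and Rpl22 in 2. Most of the 37, with Rplp0, Rplp1, Rpsa, Rpl10 and Rpl36a among them, were called in none. Without an intensity trend in the model of the spread 3 members were called. With no filter on low values 21 of 82 were called higher, where 329 of all 17710 genes were.

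Fau and Rack1, ribosomal proteins whose symbols lie outside the rule, were called higher in KO control as well, with log2 differences of 0.78 and 0.75. Other mRNAs with a 5′ TOP were called higher in 8 of 23 and lower in 0, with a median of 0.08. Among these, Rack1 itself had a difference of 0.75, the elongation factor subunit Eef1b2 of 0.64 and Tpt1, which encodes the tumour protein TCTP, of 0.44; this list holds Fau too. Short genes were also higher: of 1014 other tested genes under 1000 bases, 171 were called higher and 9 lower, with a median of 0.31. Across members, the difference had no clear relation to length (Pearson r 0.08, Spearman rho 0.04) and a weak one to the level in the controls (0.32 and 0.32), over 81 genes that share the same libraries.

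Other markers moved with the wild-type groups. Microglial markers summed to 445 and 448 scaled FPKM in KO control, against 323 and 298 in Y402F control, with 4 of 11 genes called higher. Blood markers summed to 579 and 580 in KO control, against 303 and 317 in Y402F control (4 of 5 higher), and oligodendrocyte markers to 4467 and 4592, against 2904 and 2930 (2 of 9 higher). Choroid plexus markers went the other way, with 49.6 and 48.4 in KO control, against 1148 and 1176 in Y402F control (5 of 7 lower). Neuronal markers summed to 2290 and 2300 in KO control, against 2544 and 2572 in Y402F control (0 of 9 higher, 1 lower). Astrocyte markers summed to 2073 and 2157 in KO control, against 1632 and 1595 in Y402F control. Of these 8 genes 2 were called higher and 0 lower, and 3 had a positive difference. The part of these cells in the result was not tested. Sex pattern and line cannot be told apart, since both KO controls had the female and both Y402F controls the male pattern. Of the 4 X-linked members, Rpl10 (0.48) and Rpl36a (0.43) were called higher in KO control, and Rps4x (0.26) and Rpl39 (-0.08) were not called.

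Set against their own controls, the mutants had many ribosomal protein genes called, in both directions. In KO against KO control, 41 of 81 members were called higher and 24 lower, where 16.6% of all genes were higher and 21.0% lower (37.6% in all). Libraries did not overlap at 46 higher and 29 lower members, where 35.7% and 35.3% of all genes did not. The median log2 difference was 0.32 and the SD across members 1.17, against medians of 0.00 over all genes and -0.43 over other short genes. In Y402F against Y402F control, 47 were called higher and 8 lower, where 13.0% of all genes were higher and 19.3% lower (32.3% in all), and the median was 0.63, against -0.16 over other short genes. Here libraries did not overlap at 53 higher and 15 lower members, where 34.5% and 34.1% of all genes did not. Quantile normalization gave 49 higher and 16 lower in KO, and FPKM without scaling gave 43 higher and 14 lower in Y402F. Without Y402F replicate 2, 13 members were lower in Y402F. Summed levels were less apart: 22020 scaled FPKM on average in KO, against 21340 in KO control (ratio 1.03), and 20810 in Y402F, against 14740 in Y402F control (ratio 1.41). Both subunits had members in either direction: in KO 26 large and 15 small subunit genes were higher and 13 and 11 lower, and in Y402F 28 and 19 were higher and 5 and 3 lower.

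Genes of the large subunit led the members that were higher in the mutants. Rpl17 was at 473 and 462 scaled FPKM in KO, against 48.2 and 47.7 in KO control (log2 difference 3.26, SE 0.11, limma adjusted p = 6.08e-07). It was at 417 and 502 in Y402F, against 36.5 and 42.1 in Y402F control (3.51, SE 0.11, limma adjusted p = 4.90e-07). The separation was as wide in either line. Rpl29, a heparin-binding protein, was at 341 and 348 in KO, against 39.1 and 50.1 in KO control (2.93, SE 0.14). In Y402F it was at 312 and 373, against 55.9 and 49.3 in Y402F control (2.68, SE 0.14). The further largest rises were Rpl7a (2.59 in KO and 2.92 in Y402F), Rpl23a (2.49 and 2.68), X-linked Rpl10, mutated in human autism families (2.42 and 2.68), and the small subunit genes Rps23 (1.95 and 2.18) and Rps12 (1.78 and 2.24). All were called in both lines. With the pseudogene rows described below added to the gene, however, Rpl10 was at 0.20 in KO and was not called (limma adjusted p = 0.17), and at 0.60 in Y402F.

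The members that were lower in the mutants were led by Rps15a. It was at 20.7 and 21.5 scaled FPKM in KO, against 215 and 258 in KO control (log2 difference -3.42, SE 0.11, limma adjusted p = 5.24e-07). It was at 23.6 and 24.97 in Y402F, against 130 and 129 in Y402F control (-2.37, SE 0.11, limma adjusted p = 2.28e-06). Its length in the mutant tables is 5158 bases, the longest of the tested members, and FPKM divides by length; the part of the listed length in the difference was not tested. Rpl37 was at 69.5 and 51.7 in KO, against 305 and 312 in KO control (-2.34, SE 0.17), and at 61.0 and 83.2 in Y402F, against 206 and 206 in Y402F control (-1.52, SE 0.17). Rpl13a was at 326 and 344 in KO, against 1649 and 1272 in KO control (-2.11, SE 0.16), and at 243 and 329 in Y402F, against 712 and 647 in Y402F control (-1.26, SE 0.16). No library of a mutant reached its controls at these 3 genes. Other large falls were those of Rpl22 (-1.61 in KO and -0.77 in Y402F) and of Rps3, which also acts in DNA repair (-1.53 and -0.92).

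Both lines had nearly the same order of genes. Of the 81 members, 40 were called higher in both and 8 lower in both, and none was called in opposite directions; 68 had the same sign. The correlation of the 2 sets of log2 differences across members was 0.97 (Pearson r; Spearman rho 0.96), and 0.82 over all 12977 genes (Pearson r). The lines share no library, but both comparisons hold the difference between table kinds.

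**Figure D4:**
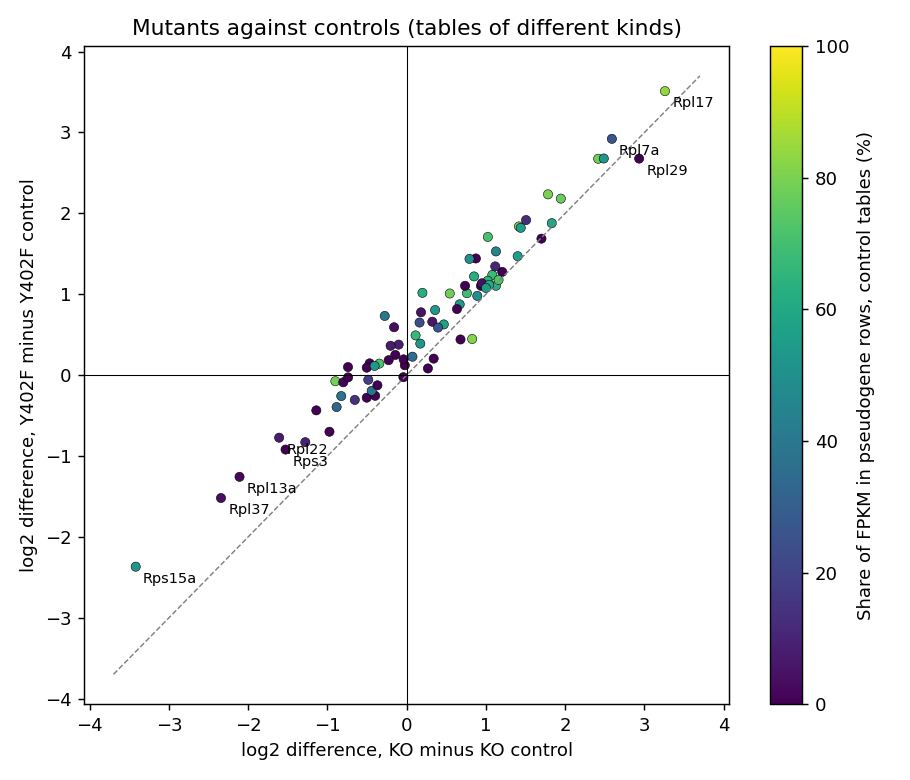
log2 difference of KO over KO control (horizontal) and of Y402F over Y402F control (vertical) for the 81 genes, coloured by the share of FPKM that the control tables place in pseudogene rows named after the gene; the dashed line marks equal differences. Points run along the line from Rps15a (-3.42 and -2.37) to Rpl17 (3.26 and 3.51), mostly a little above it.

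The difference of the 2 effects called 0 of 81 members by limma, where 0.0308% of all genes were called, with 35 members at an unadjusted p under 0.05, all lower, where 7.23% of all genes were lower and 5.8% higher at that p. This contrast is KO over its control minus Y402F over its control, and the table kind cancels in it where it acts alike in both lines. Sex pattern does not cancel: both patterns were in each mutant group, the female alone in KO control and the male alone in Y402F control. The median was -0.35 and 74 of 81 were negative, against a median of 0.02 over all genes. Other short genes leaned the same way, with a median of -0.27 and 270 of 1014 positive. The smallest adjusted p belonged to Rps15a (-1.05, SE 0.15, limma adjusted p = 0.0998), followed by Rpl34 (-1.01, SE 0.16, limma adjusted p = 0.12), Rpl31 (-0.82, SE 0.15) and Rpl22 (-0.84, SE 0.17). Without Y402F replicate 1, 3 members were called lower (limma adjusted p = 0.0399 each), among them Rpl31 and Rpl34. It shares its control libraries with the comparison of the wild-type groups above, so the values are not independent of it.

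Rows named as pseudogenes of these genes were listed almost only in the control tables. They hold 318 such rows, which summed to 11230 and 11140 scaled FPKM in KO control and 7659 and 7704 in Y402F control, 51.6 to 52.7% of the sum of the tested members. The mutant tables list 5 such rows, which summed to 249 and 295 in KO and to 169 and 249 in Y402F. Of the tested members, 62 have named pseudogene rows, and for 30 of them these rows held over 50% of the FPKM of gene and rows together. For Rpl17 the share was 83.8%, with 11 rows at 245 and 254 in KO control and 197 and 205 in Y402F control; for Rps12 it was 80.1%, for Rpl10 78.1% and for Rps23 76.6%. It was 0.26% for Rpl29, however, and 26.5% for Rpl7a, which were as much higher in the mutants. Only rows with -ps in the symbol were counted, so copies listed under other symbols are not in these shares.

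The difference of a mutant from its controls went with that share. Both quantities use the level of the gene in the control libraries, so a relation between them is partly built in. Members without named pseudogene rows had a median log2 difference of -0.14 in KO against KO control, and members with over 50% in such rows a median of 1.01; in Y402F against Y402F control the medians were 0.12 and 1.11. Across the 81 members the Pearson r of share and difference was 0.39 in KO and 0.42 in Y402F (Spearman rho 0.42 and 0.45). With each member summed with its named rows, an alternative added after the values were seen, KO against KO control had 16 members higher and 44 lower with a median of -0.45. Y402F against Y402F control then had 23 higher and 25 lower with a median of 0.02. The log2 difference of Rpl17 then came to 0.65 in KO and 0.93 in Y402F and that of Rpl23a to 1.38 and 1.63, while Rpl7a (2.15 and 2.49) and Rpl29 (2.93 and 2.68) moved less. Rps23 turned to -0.22 in KO, Rps12 to -0.04 in Y402F, and Rpl36a to -1.58 in KO and -1.20 in Y402F. How reads were divided between gene and copies was not stated, so a direction for the family in the mutants against their controls cannot be stated from these tables.

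Between the wild-type groups the pseudogene rows moved with the genes. Their sums had a ratio of 1.46 for KO control over Y402F control, beside 1.45 for the members. Members without named rows had a median log2 difference of 0.37 and members with over 50% in them 0.39. With rows and members summed, 39 members were called higher and 0 lower, 36 of them among the 37 called without the rows, and the median was 0.49.

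**Figure D5:**
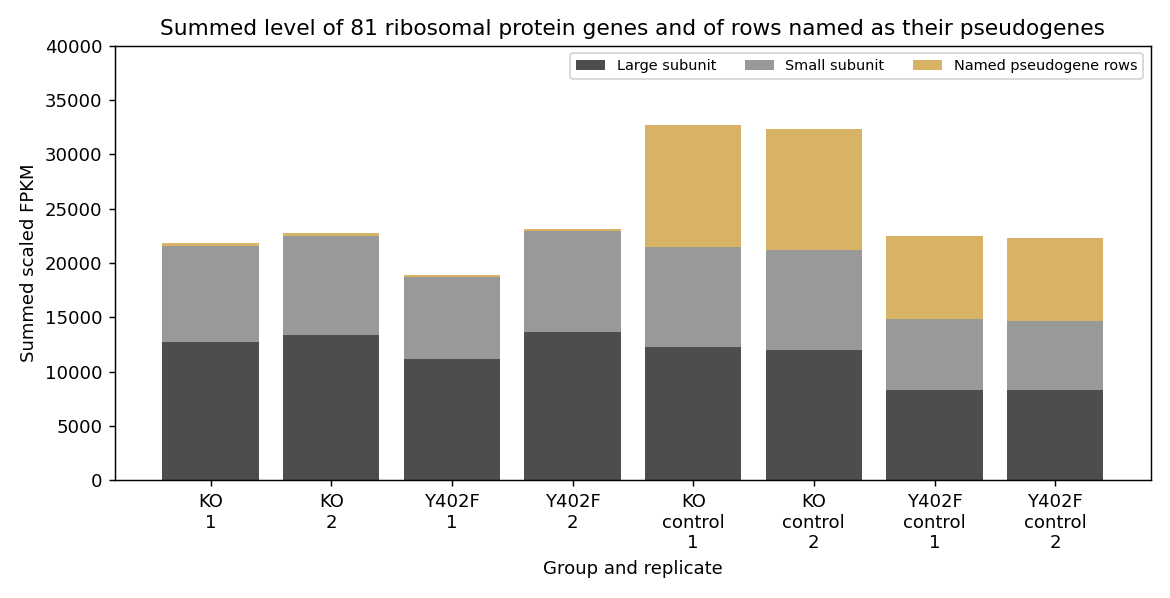
Summed scaled FPKM of the tested large subunit genes, small subunit genes and rows named as their pseudogenes in each library, stacked from 0. Gene sums are 18700 to 22920 in the mutant libraries, 21490 and 21200 in KO control and 14850 and 14630 in Y402F control, and the pseudogene rows add 169 to 295 in the mutant libraries, against 7659 to 11230 in the control libraries.

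Paralogs differed in how much of the pair they supplied. Rpl3l, the heart and skeletal muscle form of Rpl3, had 0 to 0.48 scaled FPKM in any library, beside 114 to 457 for Rpl3. Rpl10l, known from the testis, had 0.24 to 0.97 in the control tables, and Rpl39l, also known from the testis, was listed at 0 in all 4 controls. Rps27l, a p53 target, supplied 1.33 to 4.41% of the pair with Rps27. Rpl7l1 supplied 5.45 to 7.95% of the pair with Rpl7 in the mutants and 9.02 to 14.2% in the controls, and Rps4l 7.14 to 9.70% and 14.9 to 18.9% of the pair with X-linked Rps4x. Rpl36al supplied 30.5 to 32.4% of the pair with X-linked Rpl36a in the mutants and 34.3 to 47.0% in the controls.

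The pair of Rpl22 and Rpl22l1 differed in its shares between the kinds of table. Rpl22l1, whose expression Rpl22 is known to repress in mice, was at 31.7 and 24.3 scaled FPKM in KO, 26.5 and 28.2 in Y402F, 27.0 and 29.5 in KO control and 19.96 and 31.4 in Y402F control. It supplied 50.3 and 41.9% of the pair in KO and 47.0 and 44.0% in Y402F, against 20.6 and 23.1% in KO control and 24.9 and 37.1% in Y402F control. Its own level did not pass the test in any comparison, while Rpl22 was at 31.4 and 33.6 in KO and 29.8 and 35.9 in Y402F, against 104 and 98.5 in KO control and 60.3 and 53.3 in Y402F control. Every mutant library lay below every control library at Rpl22, while the libraries overlapped at Rpl22l1.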

How the data were processed

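Mouse hippocampal total RNA was measured by RNA-seq in 8 libraries of 4 groups, as the labels give them. The authors deposited an expected count and FPKM per Entrez gene for the mutants, per the file headers, and FPKM with confidence bounds per Ensembl gene, in the layout of Cufflinks, for the controls. The submitters' processing notes name Bowtie 1, HISAT and mm9 for every sample, and Cufflinks for the controls. Positions in the control tables nevertheless match GRCm38: 99.8% of genes have a start or end in common with GENCODE M21. The program behind the expected counts, and how reads that fit several places were divided, are not given in the sources used here. Expected counts that were whole within 0.005 made up 81.1 to 81.7% of a mutant library.

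Tables were joined by symbol (17629 genes) or Entrez number (89), less 8 with a repeated identity, which left 17710. FPKM was divided by median-of-ratios factors (0.942 to 1.05); before this the median gene was at a log2 difference of -0.12 in both mutants against controls. Genes with a mean FPKM of at least 1 were tested. KO against Y402F was tested by quasi-likelihood in edgeR 4.0.16, on rounded expected counts with TMM scaling (12973 genes with counts, 2 residual degrees of freedom), SE being the log2 difference over the root of F. Other comparisons were fitted in limma 3.58.1 over all 8 libraries, as log2(scaled FPKM + 1) with an intensity trend (12977 genes, 4 residual degrees of freedom); this scale understates changes of low genes. Calls are Benjamini-Hochberg adjusted p under 0.05 over all tested genes. DESeq2 1.42.0, R 4.3.3, Python 3.11.15 and pandas 2.3.3 were also used, and the fits were tested on simulated data.

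Named members are Rplp0, Rplp1, Rplp2, Rpsa, Rps27a and 8 paralog pairs, the 5 highest and 5 lowest by mean, and in each comparison up to 6 rises and 6 falls among called members without overlap, or the 4 of smallest p where none was called. A few genes that this rule names are not reported here. The members and lists were chosen with earlier results of these data known. Alternatives were another scaling, pseudocount 0.1, no filter, no trend, fewer libraries, a replicate block and, added after the values were seen, members summed with pseudogene rows. Intervals of Cufflinks cover the estimate of a library only. Promoters are from the RefSeq table of GRCm38.p6; protein sequences were not used here.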

Additional observations from a re-analysis of the deposited data

Results flagged for a closer look

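Some values lie outside the comparisons because a gene or row is listed in a single kind of table. Rows named as pseudogenes of ribosomal protein genes held 11230 and 11140 scaled FPKM in KO control replicates 1 and 2, and 7659 and 7704 scaled FPKM in Y402F control replicates 1 and 2. Of 318 such rows, 228 to 235 were above 0 in a control library.

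Of the genes that fit the symbol rule and were listed only in the control tables, 5 had levels far above 0, and RefSeq classes 4 of these as pseudogenes. The mean was 77.0 scaled FPKM in KO control and 54.5 in Y402F control for Rps12l1, and 68.0 and 65.5 for Rps3a2. For Rpl6l it was 57.1 and 44.7, for Rpl32l 44.2 and 29.9, and for Rps3a3 44.1 and 40.4, in the same order of groups. Rpl13, a large subunit gene that was listed only in the mutant tables, averaged 304 ± 13.2 scaled FPKM in KO libraries and 294 ± 47.7 in Y402F libraries (SD, n = 2 each). No test was run on these, and no group has the 4 libraries that the rule for a sample far from the others needs.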

How the results depend on the processing

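KO against Y402F called 0 members under all 10 alternatives; its median of 0.05 became -0.073 without Y402F replicate 1 and 0.198 without Y402F replicate 2, the range over left-out libraries. Against controls, FPKM without scaling gave medians of 0.182 in KO and 0.477 in Y402F with 14 members lower in Y402F, and quantile normalization 0.588 and 0.768. With pseudogene rows summed, KO had 16 higher, 44 lower and a median of -0.452, and Y402F 23 higher, 25 lower and a median of 0.0218. Leaving out a library gave Y402F 7 to 13 lower members and medians of 0.446 to 0.81. KO control against Y402F control fell to 21 higher members without a filter and 3 without a trend, and the number also fell without a library. Quantile normalization added 1 lower and gave a median of 0.276. The difference of effects had 0 to 3 lower members and a median of -0.488 to -0.225 without a library, and -0.218 under quantile normalization. The causes were not tested; a left-out library leaves a group with a lone library, assumed to vary like the others.

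Of named members, the summed rows turned Rps23 (-0.215), Rps27a (-0.211), Rpl7 (-0.0657), Rpl36a (-1.58) and Rpl39 (-1.85) in KO, Rps12 (-0.0399), Rpsa (-0.928), Rpl36a (-1.20) and Rpl39 (-1.62) in Y402F, and Rpl39 (0.531) between the wild-type groups. No other alternative turned the sign of a named member that was called before or after it.

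Replicate numbers are not shown to pair samples: deviations of same-numbered libraries correlated at 0.20 between KO and Y402F and at -0.03 to 0.05 otherwise. In both mutant groups, however, replicate 1 had the female and replicate 2 the male pattern. In KO against Y402F the replicate block therefore also stands for the sex pattern. With the replicate block, 0 members were called in KO against Y402F. By edgeR 10 of 81 had an unadjusted p under 0.05 there, as had 613 of all 12973 genes. The difference of effects had 0 members called. In KO against KO control 40 were higher and 23 lower, and in Y402F against Y402F control 47 and 8. In KO control against Y402F control 35 were higher.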

Other observations

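Of the ribosome biogenesis factors, which process ribosomal RNA in the nucleolus, 3 of 40 were called higher in KO control than in Y402F control and 0 lower by limma, with a median log2 difference of -0.04, where 4.87% of all genes were called higher and 3.19% lower and the median was -0.02. The called genes were Eif6, which keeps the subunits from joining early (1.08), Nop10 (0.62) and Nhp2 (0.66). Among the mTORC1 genes and regulators of ribosomal protein mRNA, 0 of 24 were higher and 2 lower, Yy1 (-0.56) and the mTOR partner Mlst8 (-0.61). In KO against KO control 3 of 40 biogenesis factors were higher and 13 lower, where 16.6% of all genes were higher and 21.0% lower. In Y402F against Y402F control 5 were higher and 14 lower, where 13.0% of all genes were higher and 19.3% lower. Genotype and table kind cannot be told apart in these 2 comparisons. KO against Y402F had 0 of 40 and 0 of 24 called by edgeR. Initiation and elongation factors had 5 of 26 higher and 2 lower in KO control against Y402F control.

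Gas5, a noncoding 5′ TOP RNA that hosts small nucleolar RNAs, stood at 15.6 and 12.3 scaled FPKM in KO and 14.6 and 13.5 in Y402F, against 255 and 318 in KO control and 364 and 359 in Y402F control. The kinds of table were thus apart by more than any group was from another within a kind. Of 9 such hosts tested, 1 was higher and 5 were lower in KO against KO control (all genes: 16.6% higher and 21.0% lower). In Y402F against Y402F control 0 were higher and 4 lower (all genes: 13.0% higher and 19.3% lower).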
